A study of Homo sapiens with 6 samples.

Results

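Aminoacyl-tRNA synthetases are the enzymes that attach each amino acid to its tRNA, and the 35 genes described here encode 19 that serve cytosolic and 16 that serve mitochondrial protein synthesis. The genes were picked by name out of the 63236 genes of the deposited table, by a rule that uses no measured value but was set with earlier results of these data known, and the suffix 2 marks a mitochondrial enzyme. All 35 were found, 18 under the symbol used here and 17 by Ensembl ID, because the file lists most cytosolic enzymes under an older symbol. Further rows with the symbols of VARS1 (6 rows), VARS2 (5 rows) and CARS1 (1 row) are listed at a mean of 0.0 and were not counted as members.

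The data are bulk RNA sequencing of FUJIOKA, an established human acute myeloid leukaemia cell line, in 3 libraries of cells carrying a scrambled control shRNA (shNEG) and 3 of cells carrying an shRNA against SPINK2 (shSPINK2), which encodes a Kazal-type inhibitor of serine proteases. In both groups the hairpin came from a Tet-pLKO-puro lentiviral vector in puromycin-resistant cells and was switched on with doxycycline, so both groups share vector, selection and drug. How long cells had received doxycycline before RNA extraction is not given in the sources used here, and the labels name 2 SPINK2 hairpins where the methods name 1, without saying which of them a library carries. Nothing says that the 3 libraries of a group came from separate cultures, so p-values measure only the spread between these libraries, which may be technical. The test used, limma, also draws each gene's spread towards that of the other genes, so a p-value does not rest on that gene's 6 values alone.

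Each synthetase recognises 1 amino acid and the matching tRNAs, and the charged tRNAs are the substrate of every ribosome in the cell. Mitochondria translate a small set of respiratory chain subunits with their own ribosomes and mostly with a separate set of nuclear-encoded synthetases. Several cytosolic enzymes are held together in a multisynthetase complex, and many are transcribed in response to amino acid shortage through ATF4, a transcription factor that binds amino acid response elements. Synthetases also fall into class I and class II, which have unrelated catalytic folds.

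Values below are normalized counts, that is whole reads per gene and library divided by the library's size factor. The deposited table holds 1 mean per gene, and the reads of each library were recovered from its digits, so the 3 libraries of a group have letters (a, b and c) but no replicate number, and a letter shared by the groups does not pair them. Recovered reads came to between 30141255 and 31041169 per library, and size factors ran from 0.985 to 1.03. These totals leave out the 132 most abundant genes, which hold 20.6% of the summed means, and genes with a mean under 2. SPINK2 itself (ENSG00000128040.10) averaged 57.3 ± 5.1 normalized counts in shNEG and 7.3 ± 1.5 in shSPINK2 (SD, n = 3 each). Of the 8 myeloid markers PTPRC, SPI1, CD33, MPO, CSF3R and LYZ were abundant, CD34 had a mean of 20 and KIT of 0.7, while CD3E, HBB, EPCAM and ALB of other cell types were at 0.5 or below and COL1A1 averaged 149. PTPRC and CD33 were called higher and MPO, CD34 and COL1A1 lower in shSPINK2, and their part in the results below was not tested.

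The synthetases changed in both directions and by small amounts. Of the 35 genes, 21 (60%) passed an adjusted p of 0.05 in limma, 10 higher and 11 lower in shSPINK2. Across all 15999 genes tested 58.4% passed, 28.6% higher and 29.8% lower, and among the 9782 genes whose mean lay within the range of the synthetases 71.2% passed, so the share of synthetases that passed was near or under the background. The median log2 difference, shSPINK2 minus shNEG, was -0.04 over the synthetases and 0.00 over all genes, and the median absolute difference was 0.12 against 0.27. No synthetase moved by more than 1.5-fold, whereas 16.6% of all genes tested did so and passed the test. Within the synthetases' range of means the median absolute difference was 0.23, and 1289 of the 9782 genes passed with more than 1.5-fold. In 24 of the 35 genes (68.6%) all 3 libraries of one group lay above all 3 of the other. That held for 62.4% of all genes tested and 74.2% within that range. In bulk RNA fewer cells that express a gene and less RNA per cell cannot be told apart.

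**Figure D1:**
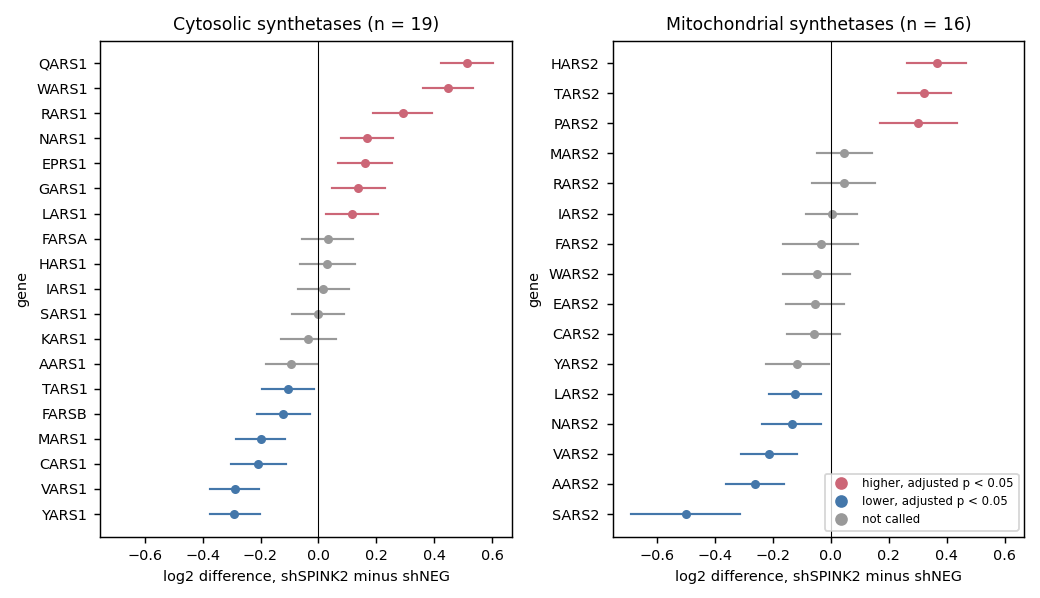
Log2 difference of each synthetase gene, shSPINK2 minus shNEG (x axis, log2 units), with its 95% interval from limma, for 19 cytosolic genes (left) and 16 mitochondrial genes (right); colour marks the genes called higher or lower. Differences run from -0.50 (SARS2) to 0.51 (QARS1), and 14 genes were not called.

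Levels are comparable between genes only per length, here per kilobase of the MANE Select transcript of GENCODE release 44. In shNEG the cytosolic transcripts had a median of 2318 normalized counts per kilobase, from 637 for FARSB to 6478 for FARSA, which encode the 2 kinds of subunit of phenylalanyl-tRNA synthetase. The mitochondrial transcripts had a median of 563, from 153 for SARS2 to 3096 for CARS2. Cysteine was the one amino acid whose mitochondrial transcript stood above the cytosolic one on this scale, with 965 for CARS1. The spread between libraries of a group was small, with a median coefficient of variation of 2.74% and a largest of 12.1%.

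Summed over the 19 cytosolic genes, shNEG libraries had 154920, 150944 and 152708 normalized counts and shSPINK2 libraries 150984, 158657 and 159410. The groups overlapped, and the mean log2 difference of the sum was 0.03. For the 16 mitochondrial genes shNEG gave 35180, 35092 and 34824, whereas shSPINK2 gave 34142, 34557 and 35649, again overlapping, with a difference of -0.01. Rises and falls of single genes thus added up to sums that changed by 2.3% and -0.7%, which is within the range of the libraries. These sums rest on the authors' size factors and were not remade with other scalings. Scaling by total recovered reads moved the median log2 difference of all genes to 0.03, and upper quartile scaling to 0.06. Such shifts are similar to or larger than the changes of the sums, so their overlap and sign hold for these size factors only.

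The gene with the largest rise was QARS1 (ENSG00000172053.17, glutaminyl-tRNA synthetase, GRCh38 chromosome 3, 49095932 to 49105130). Its shNEG libraries had 9433, 8495 and 8736 normalized counts and its shSPINK2 libraries 12464, 12683 and 12892. Every shSPINK2 library lay above every shNEG library, and the log2 difference was 0.51 (standard error 0.04, limma adjusted p = 7.13e-13), a rise of 42.8%. QARS1 has no mitochondrial counterpart, since mitochondria make glutaminyl-tRNA from misacylated glutamyl-tRNA by transamidation. WARS1 (tryptophanyl-tRNA synthetase, chromosome 14, 100333790 to 100376805) came next, with 5786, 5685 and 5716 in shNEG and 7644, 8053 and 7716 in shSPINK2. The groups were again apart, with a log2 difference of 0.45 (standard error 0.04, limma adjusted p = 1.28e-11).

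Among the mitochondrial enzymes 3 genes rose. HARS2 (histidyl-tRNA synthetase) had 1496, 1448 and 1366 normalized counts in shNEG and 1796, 1885 and 1872 in shSPINK2, a log2 difference of 0.37 (standard error 0.05, limma adjusted p = 5.40e-08). TARS2 (threonyl-tRNA synthetase) had 2912, 2795 and 2744 in shNEG and 3448, 3492 and 3634 in shSPINK2, a log2 difference of 0.32 (limma adjusted p = 9.09e-08). PARS2 (prolyl-tRNA synthetase) had 472, 504 and 487 in shNEG and 576, 594 and 635 in shSPINK2, a log2 difference of 0.30 (limma adjusted p = 1.42e-04). In each of the 3 genes the groups did not overlap.

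The largest fall was that of SARS2, the mitochondrial seryl-tRNA synthetase (chromosome 19, 38915266 to 38930763) and the least abundant of the 35 transcripts. The 3 control libraries had 292, 286 and 307 normalized counts and the shSPINK2 libraries 238, 192 and 197, and its log2 difference was -0.50 (standard error 0.09, limma adjusted p = 1.23e-05). The groups were apart, and the shSPINK2 library with 238 lay nearest to the controls. AARS2 (alanyl-tRNA synthetase) had 1891, 1899 and 1957 in shNEG and 1570, 1541 and 1685 in shSPINK2, a log2 difference of -0.26 (limma adjusted p = 1.88e-05). The 2 enzymes for valine both fell: the cytosolic VARS1 had 13871, 13307 and 13451 in shNEG and 11021, 10982 and 11235 in shSPINK2, a log2 difference of -0.29 (limma adjusted p = 1.88e-07). The mitochondrial VARS2 had 2836, 2816 and 2675 in shNEG and 2516, 2336 and 2329 in shSPINK2, a log2 difference of -0.21 (limma adjusted p = 1.70e-04). YARS1, the cytosolic tyrosyl-tRNA synthetase, had 10731, 10778 and 10906 in shNEG against 8588, 8873 and 9063 in shSPINK2, a log2 difference of -0.29 (limma adjusted p = 2.22e-07). None of these 4 genes had overlapping groups.

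**Figure D2:**
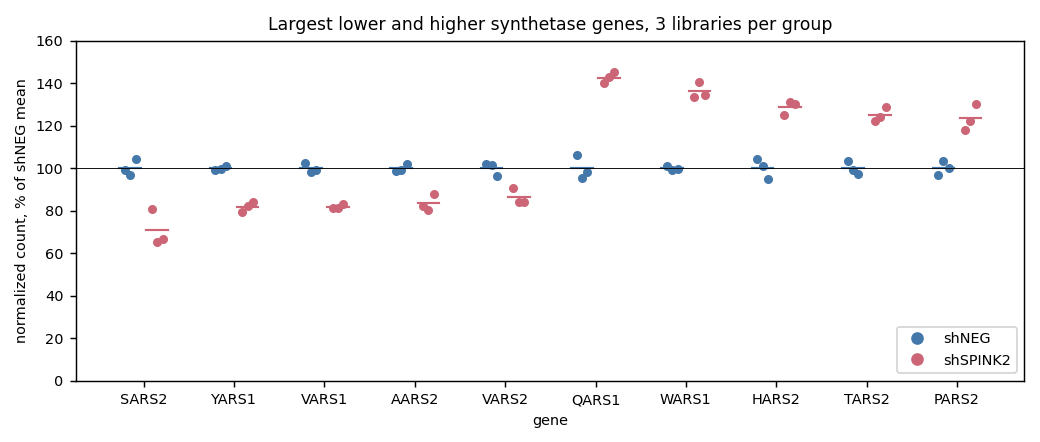
Normalized counts of the 5 synthetase genes with the largest falls and the 5 with the largest rises among those called (x axis), in each of 3 shNEG and 3 shSPINK2 libraries, as a percentage of the gene's shNEG mean (y axis); short lines are group means. In each of the 10 genes the 2 groups are apart.

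Cytosolic and mitochondrial enzymes for the same amino acid formed 17 pairs, counting EPRS1, which joins glutamyl- and prolyl-tRNA synthetase in 1 protein, and both subunits FARSA and FARSB. In 1 pair both genes rose (EPRS1 with PARS2), in 1 both fell (VARS1 with VARS2), in 3 they were called in opposite directions, in 10 only 1 gene of the pair was called, and in 2 neither was. Single genes were called higher in 28.6% and lower in 29.8% of all tested. Unrelated genes would thus also give pairs of each kind, and the pair counts were not tested. KARS1 and GARS1, each of which encodes the enzyme of both compartments from 1 gene, and QARS1 have no partner. The log2 ratio of the cytosolic to the mitochondrial gene had no overlap between groups in 13 of the 17 pairs; for single genes the share without overlap was 62.4% of all tested and 74.2% within the range of means of the synthetases, so nothing particular to the pairs is read from that count. With 3 libraries against 3, an exact two-sided permutation test on such a ratio cannot give a p under 0.1, so the ratios are given as values.

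The 3 pairs in opposite directions were those for threonine, asparagine and leucine. TARS1 had 3757, 3827 and 3819 normalized counts in shNEG and 3439, 3544 and 3628 in shSPINK2, a log2 difference of -0.10 (limma adjusted p = 0.0414), while TARS2 rose. The log2 ratio of TARS1 to TARS2 was 0.37, 0.45 and 0.48 in shNEG and lay between -0.004 and 0.02 in shSPINK2. Thus the cytosolic transcript had the larger count in shNEG and the counts were nearly equal in shSPINK2. NARS1, for asparagine, had 10376, 10578 and 10623 in shNEG and 11220, 12236 and 12042 in shSPINK2, a log2 difference of 0.17 (limma adjusted p = 0.00112). NARS2 had 1371, 1395 and 1370 in shNEG and 1238, 1247 and 1282 in shSPINK2, a log2 difference of -0.13 (limma adjusted p = 0.0213). The ratio of the pair changed by 0.30 on the log2 scale, with no overlap of libraries. LARS1, for leucine and a member of the multisynthetase complex, had 10968, 11104 and 11036 in shNEG and 11377, 12478 and 12029 in shSPINK2, a log2 difference of 0.12 (limma adjusted p = 0.0225). LARS2 had 3670, 3602 and 3713 in shNEG and 3283, 3351 and 3452 in shSPINK2, a log2 difference of -0.12 (limma adjusted p = 0.0167). The groups of all 6 genes were apart, although by little in TARS1, NARS2 and the leucine enzymes.

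Serine and tryptophan gave the largest changes of ratio, each with 1 gene called. SARS1, the partner of the falling SARS2, had 3807, 3934 and 3874 normalized counts in shNEG against 3725, 3899 and 3983 in shSPINK2, a log2 difference of -0.001 (95% interval -0.09 to 0.09). The log2 ratio of SARS1 to SARS2 rose by 0.50, from a mean of 3.71 to 4.22. WARS2, the partner of WARS1, had 997, 892 and 984 in shNEG and 917, 915 and 944 in shSPINK2, a log2 difference of -0.05 (interval -0.16 to 0.07), and the ratio of that pair rose by 0.49. In SARS1 and WARS2 the libraries of the 2 groups overlapped.

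Histidine is served by a pair of neighbouring genes of similar sequence on chromosome 5, whose annotated starts overlap by 107 bases in opposite orientation. HARS1 had 2903, 2906 and 2904 normalized counts in shNEG and 2948, 2815 and 3140 in shSPINK2, overlapping, with a log2 difference of 0.03 (interval -0.07 to 0.13), while HARS2 rose. The ratio of HARS1 to HARS2 changed by -0.34 on the log2 scale, and the libraries were apart. Reads that fit both paralogs, or the stretch where they overlap, could have been assigned to either or dropped, so the 2 values are uncertain to that extent.

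In the remaining pairs the cytosolic gene was mostly the one called. RARS1 (arginine) rose from 2739, 2852 and 2959 normalized counts in shNEG to 3182, 3755 and 3535 in shSPINK2, a log2 difference of 0.29 (limma adjusted p = 6.06e-06), and RARS2 had 1257, 1288 and 1332 against 1265, 1321 and 1418, a difference of 0.04. EPRS1 rose from 11849, 11791 and 11619 to 12168, 13963 and 13304, a log2 difference of 0.16 (limma adjusted p = 0.00297). EARS2, its partner for glutamate, had 1487, 1539 and 1567 in shNEG and 1466, 1482 and 1477 in shSPINK2, a difference of -0.05 that was not called although the groups were just apart. Arginine and glutamate thus had a rise on the cytosolic side with no call on the mitochondrial side.

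Cysteine, methionine, tyrosine and phenylalanine had a fall on the cytosolic side. CARS1 fell from 2749, 2557 and 2620 normalized counts to 2302, 2228 and 2330, a log2 difference of -0.21 (limma adjusted p = 2.12e-04), and CARS2 had 5619, 5868 and 5586 against 5432, 5213 and 5761, a difference of -0.06. MARS1 (methionine, which also starts every chain) fell from 11447, 11268 and 11229 to 9912, 9809 and 9855, a log2 difference of -0.20 (limma adjusted p = 9.21e-05), and MARS2 had 2257, 2215 and 2143 against 2212, 2289 and 2326, a difference of 0.05. The 3 shSPINK2 libraries of MARS1 lay close together and below all controls. YARS2, the partner of YARS1, had 1092, 1077 and 1163 against 1028, 999 and 1048, a log2 difference of -0.12 that missed the threshold (limma adjusted p = 0.0658). FARSB fell from 4329, 4245 and 4349 to 3754, 4202 and 3943, a log2 difference of -0.12 (limma adjusted p = 0.0232), with 1 shSPINK2 library close to the controls. FARSA, the other subunit of the same enzyme, had a log2 difference of 0.03 (interval -0.06 to 0.12) and counts of 11491 to 12143 in shNEG and 11635 to 12435 in shSPINK2. FARS2, which works as a single chain in mitochondria, had 604, 589 and 592 against 555, 609 and 579, a difference of -0.03.

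For alanine the mitochondrial gene was the one called: AARS1 had 7221, 7061 and 7280 normalized counts in shNEG and 6495, 6731 and 6989 in shSPINK2, a log2 difference of -0.09 (limma adjusted p = 0.0633), with groups apart. The isoleucine pair showed no detectable change, with log2 differences of 0.02 for IARS1 (interval -0.07 to 0.10) and 0.003 for IARS2 (interval -0.09 to 0.09). Of the 2 genes that serve both compartments, GARS1 (glycine) rose from 3644 to 3787 in shNEG to 3939 to 4221 in shSPINK2, a log2 difference of 0.14 (limma adjusted p = 0.00778). KARS1 (lysine) had 9432 to 10269 in shNEG and 9129 to 10317 in shSPINK2, a difference of -0.04 (interval -0.13 to 0.06). Over the 14 genes not called, the 95% intervals of the log2 difference ran from -0.23 at the lowest to 0.15 at the highest.

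Leaving out each of the 6 libraries in turn kept 15 of the 21 calls. The 6 that were lost in some of these fits, which have fewer samples, kept their direction, with log2 differences of 0.12 to 0.17 for GARS1, 0.08 to 0.15 for LARS1, -0.16 to -0.08 for FARSB, -0.12 to -0.08 for TARS1, -0.15 to -0.12 for NARS2 and -0.14 to -0.11 for LARS2. GARS1 was not called without shNEG library b (limma adjusted p = 0.0588). LARS2 was not called without shNEG a (0.0558) or c (0.0889), and NARS2 without shNEG a (0.052), b (0.0828) or c (0.0577). LARS1 lost its call without shNEG a (0.0762), b (0.0592) or c (0.0784) or shSPINK2 b (0.0795), FARSB without shNEG a (0.0739) or c (0.0908) or shSPINK2 a (0.113) or c (0.0505), and TARS1 without shNEG a (0.0752), b (0.128) or c (0.131) or shSPINK2 a (0.0954). In the other direction AARS1 was called lower without shSPINK2 c (0.0247). Each of the 3 pairs called in opposite directions thus holds at least 1 gene whose call was lost in such a fit, namely TARS1, NARS2, and both LARS1 and LARS2.

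By enzyme class, 10 of 18 class I genes were called (4 higher, 6 lower) and 10 of 16 class II genes (5 higher, 5 lower), EPRS1 with a domain of each class being left out. Among cytosolic genes alone 8 of 9 class I genes were called and 4 of 9 class II genes, with median absolute log2 differences of 0.29 and 0.09. Among mitochondrial genes the counts ran the other way, with 2 of 9 class I genes called (VARS2 and LARS2) and 6 of 7 class II genes, and medians of 0.05 and 0.30. The share called over all genes tested was 58.4%, and 71.2% within the range of means of the synthetases, and no test was made of these differences.

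The multisynthetase complex holds 7 of the cytosolic genes. Of these EPRS1, LARS1, QARS1 and RARS1 rose, MARS1 fell, and IARS1 and KARS1 were not called, with a median log2 difference of 0.12 against 0.00 over all genes tested. The share called, 71.4%, was near the 71.2% of genes within the range of means of the synthetases, and 58.4% of all genes tested were called. The transcripts of the 3 scaffold proteins of the complex fell, as MARS1 did: AIMP1 (-0.13), AIMP2 (-0.17) and EEF1E1 (-0.20) were all lower (limma adjusted p = 0.0336, 0.00931 and 0.00624), although the libraries of the 2 groups overlapped for AIMP1. The difference between these genes and the synthetases of the complex was not tested. The 12 cytosolic genes outside the complex had 3 higher and 5 lower (66.7% called).

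Of other genes of tRNA charging, 2 were listed, and both rose. TARS3, another cytosolic threonyl-tRNA synthetase of low abundance, rose by 0.62 (limma adjusted p = 6.14e-08), in contrast to the fall of TARS1. SEPSECS, the last enzyme of selenocysteinyl-tRNA synthesis, rose by 0.51 (limma adjusted p = 1.37e-09).

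Mitochondria lack a glutaminyl-tRNA synthetase, and the transamidase that replaces it has 3 subunits. QRSL1 fell by 0.36 on the log2 scale (limma adjusted p = 3.77e-08) whereas GATB (0.15) and GATC (0.13) rose (limma adjusted p = 0.0259 and 0.024). MTFMT, which formylates the initiator methionyl-tRNA made by MARS2, fell by 0.55 (limma adjusted p = 4.74e-09). Of 12 mitochondrial translation factors 3 rose and 5 fell, led by MRRF, the ribosome recycling factor, which fell by 0.96 on the log2 scale, with MTIF3 (0.33) among those higher and GFM1 (-0.33) among those lower. The median of the 12 was -0.02. The share called, 66.7%, lay between the 58.4% of all genes tested and the 71.2% within the range of means of the synthetases.

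Genes that make and mature tRNA held more falls than rises, against 29.8% lower and 28.6% higher over all genes tested, and no test was made of the lists. Of 21 genes of RNA polymerase III and its factors, which transcribe tRNA genes, 14 fell and 2 rose (76.2% called), with a median log2 difference of -0.17. POLR3G, 1 of 2 alternative subunits of the polymerase, fell by 1.26 (limma adjusted p = 4.52e-17) and its counterpart POLR3GL rose by 0.51, with no overlap of libraries for either. GTF3C5, a subunit of the factor TFIIIC that binds tRNA gene promoters, fell by 0.86, and GTF3C2 of the same factor by 0.55. Of 24 genes of tRNA end maturation, splicing and export, 12 fell and 5 rose (70.8% called), with a median of -0.15, the largest fall being that of POP7, a subunit of RNase P, at -0.70, and the largest rise that of TSEN34, a subunit of the splicing endonuclease, at 0.52. Of the 3 subunits of mitochondrial RNase P, the nuclease PRORP fell by 0.48, while TRMT10C (0.15) and HSD17B10 (0.36) rose (limma adjusted p = 0.011 and 3.23e-09). Of 5 proofreading and release genes tested, 3 fell, namely PTRH2 (-0.32), DTD2 (-0.29) and ANKRD16 (-0.25).

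Many synthetase genes carry an amino acid response element near their start. The word TGATGNAA, the core of that element, was searched on both strands in the RefSeq promoters of GRCh38.p14, each 250 bases before to 50 bases after a start. It was found in 1270 of 35116 promoters (3.62%) and in 8 of the 30 synthetase genes with a promoter in that table, of which 7 are cytosolic. AARS2, LARS1, VARS1, VARS2 and YARS1 have no promoter there. The 30 genes have 39 promoters in the table, so the share of genes is not directly comparable with the share of promoters. The stretches are printed so that the shared word, in capitals, can be seen beside the different responses of the genes; each reads along the strand of its gene.
AARS1, chr16:70289660-70289719, minus strand: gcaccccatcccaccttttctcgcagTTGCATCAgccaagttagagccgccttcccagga
CARS1, chr11:3057407-3057436, minus strand: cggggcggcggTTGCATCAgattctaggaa
GARS1, chr7:30594819-30594877, plus strand: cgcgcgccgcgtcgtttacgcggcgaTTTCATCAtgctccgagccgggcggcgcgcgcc
IARS1, chr9:92293698-92293736, minus strand: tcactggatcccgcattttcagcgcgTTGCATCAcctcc
MARS1, chr12:57488053-57488082, plus strand: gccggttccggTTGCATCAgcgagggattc
NARS1, chr18:57621804-57621833, minus strand: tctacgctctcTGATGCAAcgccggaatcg
TARS1, chr5:33440956-33440985, plus strand: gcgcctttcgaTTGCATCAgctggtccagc
YARS2, chr12:32756061-32756120, minus strand: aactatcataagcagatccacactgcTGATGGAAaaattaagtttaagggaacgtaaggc

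Of the 8 genes with the word, GARS1 and NARS1 rose, CARS1, MARS1 and TARS1 fell, and AARS1, IARS1 and YARS2 were not called. Their median log2 difference was -0.10, against 0.02 for the 22 synthetases with a promoter in the table and no match. Over all genes tested 58.4% were called, and 71.2% within the range of means of the synthetases. Neither the calls nor the medians were tested between genes with and without the word. Of the 12 genes listed for the amino acid response that have a promoter there, the same search found the word in 3. Absence of a match therefore does not show that a gene lacks such an element. A match is a description of the letters and does not show that a factor binds there. The transcript of ATF4 itself fell by 0.20 on the log2 scale (limma adjusted p = 7.71e-05), from a mean of 16016 ± 39 to 13942 ± 211 normalized counts (SD, n = 3 each). These data hold no values of ATF4 protein, and a link between ATF4 and the genes with the word was not tested.

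Other genes of the amino acid response moved both ways. Without ATF4, 13 genes were tested, of which 4 rose and 5 fell, with a median of -0.12. The share called was 69.2%, against 58.4% of all genes tested and 71.2% within the range of means of the synthetases. DDIT4, an inhibitor of mTORC1, rose by 1.12 (limma adjusted p = 9.87e-18), SLC7A5, the large neutral amino acid transporter, fell by 0.92 (limma adjusted p = 3.28e-21), and SLC7A11, the cystine transporter, rose by 0.90 (limma adjusted p = 3.45e-17). ASNS, asparagine synthetase, had a mean of 116 ± 15 in shNEG and 138 ± 22 in shSPINK2 and was not called (limma adjusted p = 0.0927), and PSAT1 had a mean of 6.2, below the minimum.

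A synthetase gene can share its start region with a gene on the opposite strand, and 9 such arrangements, with protein-coding starts within 1000 bases, involve 10 of the synthetases. SARS2 lies 181 bases from MRPS12, a mitochondrial ribosomal protein, and both fell, MRPS12 by 0.22 on the log2 scale (limma adjusted p = 7.16e-05). WARS1 overlaps WDR25, and both rose, WDR25 by 0.41 (limma adjusted p = 6.62e-06). In 4 arrangements only 1 of the 2 genes was called: HARS2 and not HARS1, UBFD1 (0.24) and not EARS2, LYRM4 (0.17) and not FARS2, and ING1 (-0.25) and not CARS2. AARS1 with DDX19B, KARS1 with TERF2IP and RARS2 with ORC3 had no call on either side. Over all genes tested, 28.6% were called higher and 29.8% lower. Unrelated genes would thus also give arrangements of each kind, and these counts were not tested. The strandedness of the authors' counting is not given in the sources used here, so for genes that overlap, reads from the shared stretch cannot be assigned with certainty.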

How the data were processed

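Gene expression was measured by RNA sequencing (paired reads of 150 bases) in 6 libraries, 3 per group. Per the methods and the submitters' processing notes, reads were aligned to GRCh38 with STAR 2.7.11, counted per gene with featureCounts and compared with DESeq2 1.40.0. The authors deposited a signal, which is each gene's count divided by the size factor and averaged over the 6 libraries, and log2 fold changes with standard errors, p-values and adjusted p-values of shSPINK2 against shNEG. The deposited log2 fold changes and p-values are not reported here.

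The members and gene lists were chosen with earlier results of these data known, and some genes of the lists are not reported here. Size factors were taken from genes with 1 read in 1 library, and the whole reads behind each mean between 2 and 30000 were recovered as the whole numbers whose weighted sum gives its 15 digits. The deposited log2 fold change and standard error were used only to tell apart candidate solutions and to place libraries in groups. Each of 21032 genes had 1 solution, and 15999 of the 16131 genes with a mean of at least 10 (99.2%) were tested. The recovery and the test were tried on simulated reads. All 15999 genes were recovered with the right reads. Of 96 genes changed by 0.3 on the log2 scale 59 were called in the right direction, and of 100 changed by 1, 90 were. Of the unchanged genes 6 were called. Changes smaller than 0.3 were not simulated. Far fewer genes changed there than in the data, where 58.4% were called, so these shares do not carry over directly. As the protocol mentions no molecular identifiers, several reads may be copies of the same molecule, and read numbers are not numbers of molecules.

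The test was limma 3.58.1 (trend and robust empirical Bayes, R 4.3.3) on log2(normalized count + 1), Benjamini-Hochberg adjusted over all tested genes, and a gene was called at an adjusted p under 0.05. Differences are on that scale. Alternatives were other pseudocounts, minimum means, scalings, thresholds, protein-coding genes only, limma without trend and robust, edgeR 4.0.16 on the recovered reads, and leaving out each library. Every member was named, with all 6 values for the 5 largest called changes in each direction and for pairs with unlike calls, and at most 3 called genes of each list by size; other list genes named, the neighbours, the promoter word and the range of means were chosen after values were seen. Python 3.11.15, pandas 2.3.3 and matplotlib 3.10.9 were also used.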

Additional observations from a re-analysis of the deposited data

How the results depend on the processing

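The number of cytosolic genes called, 13, ranged from 9 (limma without trend and robust) to 13 over the other fits, and that of mitochondrial genes, 8, from 6 to 8; leaving out each library in turn gave 10 to 13 and 6 to 8. With a difference of over 1.5-fold or over 1 on the log2 scale required, 0 cytosolic and 0 mitochondrial genes were called. No called gene changed direction in any of these fits. The size of the p-values depends on how limma pools the spread over genes. In limma without trend and robust the adjusted p was 7.58e-04 for QARS1 and 5.04e-04 for WARS1, instead of 7.13e-13 and 1.28e-11. Of the 21 calls 14 held in every refit: EPRS1 and LARS1 were lost in limma without trend and robust (adjusted p = 0.0717 and 0.0923), FARSB there and under upper quartile scaling (0.109 and 0.181), LARS2 under upper quartile scaling (0.147), NARS2 under total read and upper quartile scaling (0.0519 and 0.159), TARS1 under 5 alternatives (0.0528 to 0.306), and GARS1 only when a library was left out. Upper quartile scaling, which shifts the median of all genes by 0.06, also called FARSA (0.0394) and MARS2 (0.0377) higher. The causes were not tested. No paired analysis was possible because the recovered libraries carry no replicate number. The values of the most abundant 132 genes were not recovered, and the smallest difference called among the synthetases was 0.10 on the log2 scale.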
